A study of Mus musculus with 7 samples.

Results

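The translation initiation factors are the proteins that bring the ribosome, the initiator tRNA and an mRNA together. Their genes were taken here as every gene on the array whose current symbol begins with Eif1, Eif2, Eif3, Eif4, Eif5 or Eif6. There were 42 such genes among 12393 named genes, and each was represented by its probe set (a group of short probes against 1 transcript) with the highest mean over all 7 arrays. Of the 42, 39 were bright enough to be tested, among 8867 genes tested in all. The arrays, of the Affymetrix MOE430A design, held left ventricle RNA from 7 male mice aged 21 months, 1 mouse per array. The knockout group was 3 mice lacking endothelial nitric oxide synthase (eNOS -/-), numbered M4, M10 and M140, and the wild-type group was 4 mice (+/+) with the numbers M23, M125, M128 and M158. The sources used here do not state the mouse strain or the way the eNOS gene was disrupted, and neither group is labelled as treated. The labels give a search for molecular markers of heart failure in the aged knockout as the purpose of the comparison.

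Initiation begins when eIF2, carrying GTP and the initiator methionyl tRNA, joins the small ribosomal subunit together with eIF1, eIF1A, eIF3 and eIF5. The mRNA is brought in by the cap-binding factor eIF4E, the scaffold eIF4G and the helicase eIF4A with its helpers eIF4B and eIF4H, and eIF5B then joins the large subunit. Cells control the process mainly at eIF4E, which the 4E-BP proteins hold back until mTOR phosphorylates them, and at eIF2, which stress kinases phosphorylate so that its exchange factor eIF2B stalls. In heart muscle these steps set the rate of protein synthesis during growth of the myocyte. Arrays of RNA measure transcripts only, and phosphorylation is outside these data.

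The targeted gene and the tissue were looked at first. Nos3, which encodes eNOS, read 1145, 1414 and 1135 on M4, M10 and M140 and 791, 1163, 872 and 1058 on M23, M125, M128 and M158, in deposited intensity units on a linear scale. It was thus not lower in the knockout group (log2 difference 0.35, SE 0.15, adjusted p = 0.382). No source used here states where its probe set lies relative to the disruption, so it checks nothing about the labels, and "knockout" below stands for the label. The summed level of 6 ventricular muscle markers ran from 221712 to 228967 over the 7 arrays. However, 5 of them (Myl2, Myl3, Myh6, Tnni3 and Tnnt2) read at the upper limit of every array. This sum therefore mostly repeats the limit and cannot show whether ventricular muscle differed. The summed level of 5 atrial markers was 37855 on knockout M10, 46285 on wild-type M125 and 15244 on wild-type M128, against 4167 to 6814 on the other 4 arrays. Sums for macrophage markers (10 genes) were 31931 to 42300 in the knockout and 24224 to 38021 in the wild type, for red cell markers (4 genes) 5483 to 10599 and 4113 to 4915, and for fibroblast markers (8 genes) 27487 to 102191 and 34948 to 49060. For endothelium (7 genes) the sums were 12494 to 14832 in the knockout and 11197 to 16933 in the wild type. For smooth muscle (4 genes) they were 11112 to 14337 and 7584 to 13059. Both were lowest on wild-type M128. Single bright genes weighed heavily in such sums. Alas2 read 6236, 6484 and 2597.5 in the knockout against 1649 to 2123, and 2 red cell markers were too dim to be tested. Postn alone ran from 1684.5 to 37003 in the knockout, and 6 fibroblast differences were above 0 and 2 below. Of the 10 macrophage differences 9 were above 0 and 1 below. Fcgr3, Cd163, Csf1r and Cd68 were higher at an unadjusted p under 0.05 in limma (40%, against 7.04% of all genes). The groups did not overlap for these 4 (40%, against 5.29%), and 0 passed after adjustment. The part of these cells in the values of the initiation factors was not tested, and in bulk tissue fewer cells of a type and less RNA per cell cannot be told apart. The arrays were hybridized on 4 days, coded 1 to 4 in order. M140 (knockout) and M128 (wild type) shared day 1, so that only this pair compares the groups within a day. M125 was alone on day 2, the other knockout arrays shared day 3 and the other wild-type arrays day 4. In the fit with day as a block, each difference was therefore that between M140 and M128. Its error came from the arrays that shared days 3 and 4 and from pooling over genes. The p-values of that fit thus do not measure a spread between mice within day 1.

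Promoter sequence is shown for a few members because several initiation factors are known targets of MYC and related factors, which bind the E-box CACGTG. A window from 250 bases before to 50 after each RefSeq gene start (GRCm38.p6) was available for 34 of the 42 genes. The E-box, which reads the same on both strands, was found in 8 of these 34 (23.5%), against 8.09% of 27025 genes with such a window. The 8 were Eif1b, Eif3a, Eif3f, Eif3k, Eif4a1, Eif4e, Eif4h and Eif5a. The stretches below read 5′ to 3′ along the gene's own strand, with the motif in capitals. Eif1b is at chr9:120492558-120492605 (plus strand). Eif4a1 is at chr11:69672583-69672636 (minus strand), the downstream Eif4e motif at chr3:138527180-138527233 and its upstream motif at chr3:138527018-138527069 (both plus strand), and Eif5a at chr11:69921431-69921484 (minus strand).
Eif1b: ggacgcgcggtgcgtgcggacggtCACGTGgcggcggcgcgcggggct
Eif4a1: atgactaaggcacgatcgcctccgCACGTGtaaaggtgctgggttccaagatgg
Eif4e, downstream: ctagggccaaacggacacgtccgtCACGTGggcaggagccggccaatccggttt
Eif4e, upstream: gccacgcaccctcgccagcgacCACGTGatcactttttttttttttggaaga
Eif5a: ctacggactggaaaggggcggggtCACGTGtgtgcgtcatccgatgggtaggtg
Their motifs lie 24, 189, 64, 228 and 74 bases before a gene start, in that order. The Eif5a motif shown also lies 185 bases before another start of the gene. A further Eif5a motif, in the stretch chr11:69920779-69920832 (minus strand), lies 178 bases before a start and is not shown. A match describes the letters only. Among the 8 genes with the motif, 5 differences between knockout and wild type were above 0 and 3 below, with a median of 0.02 on the log2 scale, and the 23 tested genes with a window and no motif had a median of 0.16.

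No initiation factor differed between knockout and wild type past the threshold. At an adjusted p under 0.05 (limma with Benjamini-Hochberg adjustment over all 8867 genes) 0 of the 39 tested members passed, where 1 gene of all those tested (0.0113%) did, Ppargc1a. The smallest adjusted p of a member was 0.217. At an unadjusted p under 0.05, 3 members were higher in the knockout (Eif4b, Eif5b and Eif3a; 7.69% of 39, against 7.04% of all genes) and 2 were lower (Eif4g2 and Eif2d; 5.13% against 5.61%). These shares were near those of all genes. The groups did not overlap for 1 member that was higher on every knockout array (Eif4b; 2.56% against 5.29% of all genes) and for 2 that were lower (Eif4g2 and Eif2d; 5.13% against 4.89%). Differences are given as knockout minus wild type on the log2(intensity + 16) scale, where 1 is a doubling, and those of 28 members were above 0 and of 11 below (71.8% above, against 49.4% of all genes). The median over the 39 members was 0.12, beside -0.003 over all genes, and 10 members differed by more than 0.25 in either direction. Without wild-type M128 the median of the members was 0.05 and without knockout M140 0.08, and between M140 and M128, the 2 arrays of day 1, it was 0.26.

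**Figure D1:**
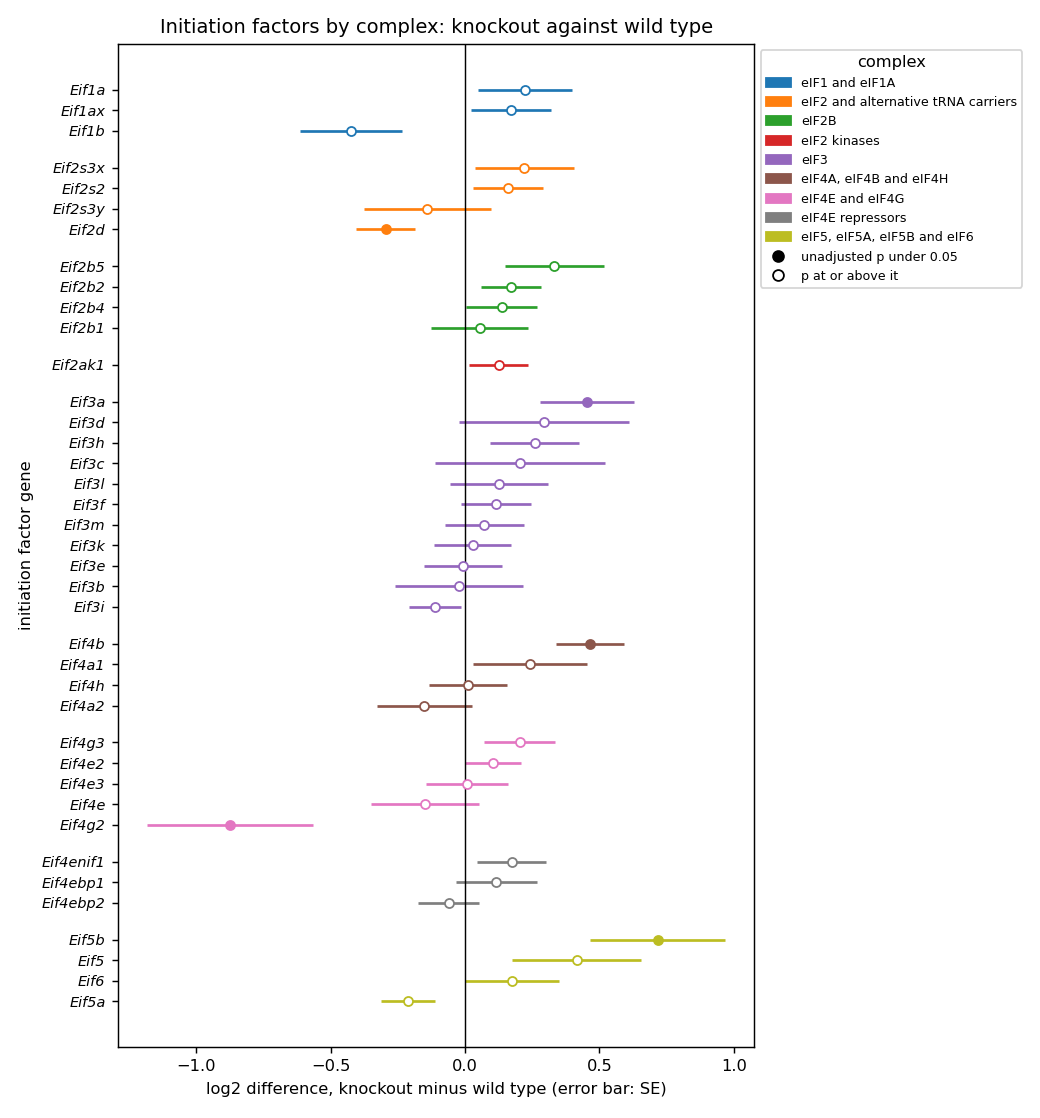
Log2 difference between knockout (3 arrays) and wild type (4 arrays) for each of the 39 tested initiation factor genes, by complex, with its standard error as a bar; filled points have an unadjusted p under 0.05. The 5 filled points are Eif4b, Eif5b and Eif3a above 0 and Eif4g2 and Eif2d below 0, and the other points run from -0.43 (Eif1b) to 0.42 (Eif5).

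Values on each array are given below in the order M4, M10, M140 for the knockout and M23, M125, M128, M158 for the wild type. The helicase group is taken first because it held the member with the smallest p. Eif4b, an RNA-binding cofactor of the eIF4A helicase that S6 kinase phosphorylates, read 8911, 8342 and 7624 in the knockout and 5497, 5592, 6729 and 6214 in the wild type. Every knockout array was above every wild-type array. Mean intensity was 8292 ± 645 (SD, n = 3) against 6008 ± 576 (SD, n = 4). On the log2 scale the difference was 0.47 (SE 0.13, adjusted p = 0.217). The exact two-sided permutation test gave 0.0286, the smallest p that 3 arrays against 4 can give. Of its 2 other probe sets, 1 differed by 0.53 with no overlap of the groups (adjusted p = 0.294), and 1 differed by 0.003. The last held the same value, 3602, on 4 of the 7 arrays, and such ties occurred in other genes too. Within day 1 the difference was 0.18 (adjusted p = 0.678 with day as a block, the only 1 of 20 alternatives in which the unadjusted p of Eif4b was above 0.05).

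The helicase itself is encoded by a pair of close paralogs. Eif4a1, the main form in growing cells, read 8100, 5800 and 9621 in the knockout and 8166, 5147, 6491 and 6531 in the wild type (log2 difference 0.24, SE 0.21). Eif4a2, the paralog abundant in muscle and brain, read 9862, 10572 and 6805, and 8440, 10483, 11035 and 9862 (log2 difference -0.15, SE 0.18). Groups overlapped for both. M140 stood out in both, with the highest Eif4a1 and the lowest Eif4a2 of all 7 arrays. Without M140 the Eif4a2 difference turned positive. Eif4h, a smaller relative of eIF4B in function, differed by 0.01 (SE 0.15).

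Among the scaffold and cap-binding genes, Eif4g2 had the widest difference of any member with the brightest probe set for each gene. Eif4g2, also called DAP5, is an eIF4G relative without the eIF4E-binding part that serves initiation independent of the cap. It read 12003, 9883 and 13293 in the knockout and 31372, 15248, 14073 and 30932 in the wild type. All knockout arrays were lower, but the wild-type arrays fell apart, with M23 and M158 more than 2 times as high as M125 and M128. The log2 difference was -0.88 (SE 0.31, adjusted p = 0.307), and the exact permutation p was 0.114. M23 and M158 are the arrays of day 4, and they had the lowest ratios of 5′ to 3′ control probe sets for beta-actin, 0.312 and 0.371, against 0.517 to 0.834 on the other 5; the part of this in the Eif4g2 value was not tested. Without both the difference was -0.33 (adjusted p = 0.412), and within day 1 it was -0.08 (adjusted p = 0.869 with day as a block). The unadjusted p was also above 0.05 without M10, M23 or M158 alone. The other 2 tested probe sets of the gene differed by -0.05 (adjusted p = 0.912) and -0.11 (adjusted p = 0.79). On these, M23 and M158 lay within the range of the other arrays. The probe set used had the highest mean over 7 arrays, 18115, against 13879 for the one that differed by -0.05. In the knockout, however, its mean of 11726 was below the 13546 of that other probe set. It was thus the brightest only through wild-type arrays, where M23 and M158 read highest. The mean of all 4 probe sets of Eif4g2, including a dim one that was not tested, differed by -0.24. The probe set used can hybridize with other transcripts by its design suffix. Such suffixes were on 10 of the probe sets used for the members. The others were those of Eif1a, Eif2b2, Eif2s3x, Eif3c, Eif3e, Eif3m, Eif4h, Eif4ebp1 and Eif5a.

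Eif4g3, a scaffold that binds eIF4E like eIF4G1, read 3587, 2897 and 3261 in the knockout and 3154, 2611, 2612 and 2897 in the wild type (log2 difference 0.20, SE 0.13). Eif4g1 itself is not analysed here. Eif4e, the cap-binding protein whose amount limits initiation in many cells and whose promoter stretches are shown above, read 4659, 4731 and 3345 in the knockout and 4046, 4010, 6178 and 4659 in the wild type. Groups overlapped, with M128 the highest and M140 the lowest (log2 difference -0.15, SE 0.20, adjusted p = 0.839). The difference turned positive without M140. Its 2 other probe sets were lower in the knockout by -0.56 (adjusted p = 0.404) and -0.27 (adjusted p = 0.649). Eif4e2, a cap-binding relative that represses translation, and Eif4e3, a further relative, differed by 0.10 and 0.01.

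The repressors of eIF4E did not differ past the threshold. Eif4ebp1, which encodes 4E-BP1, a target of mTOR, read 8976, 8442 and 9490 in the knockout and 10216, 8871, 7205 and 7131 in the wild type (log2 difference 0.12, SE 0.15). The highest array and the lowest were both wild type. Its other probe sets differed by 0.40 (adjusted p = 0.436) and 0.24 (adjusted p = 0.391), with the group ranges overlapping on both. Eif4ebp2, which encodes 4E-BP2, read 932, 872 and 825, and 868, 1124, 821 and 872 (log2 difference -0.06, SE 0.11). Eif4enif1, which encodes the transporter that carries eIF4E into the nucleus and represses its mRNAs, read 1969, 1959 and 2418, and 1969, 1900, 1618 and 2000 (log2 difference 0.17, SE 0.13).

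**Figure D2:**
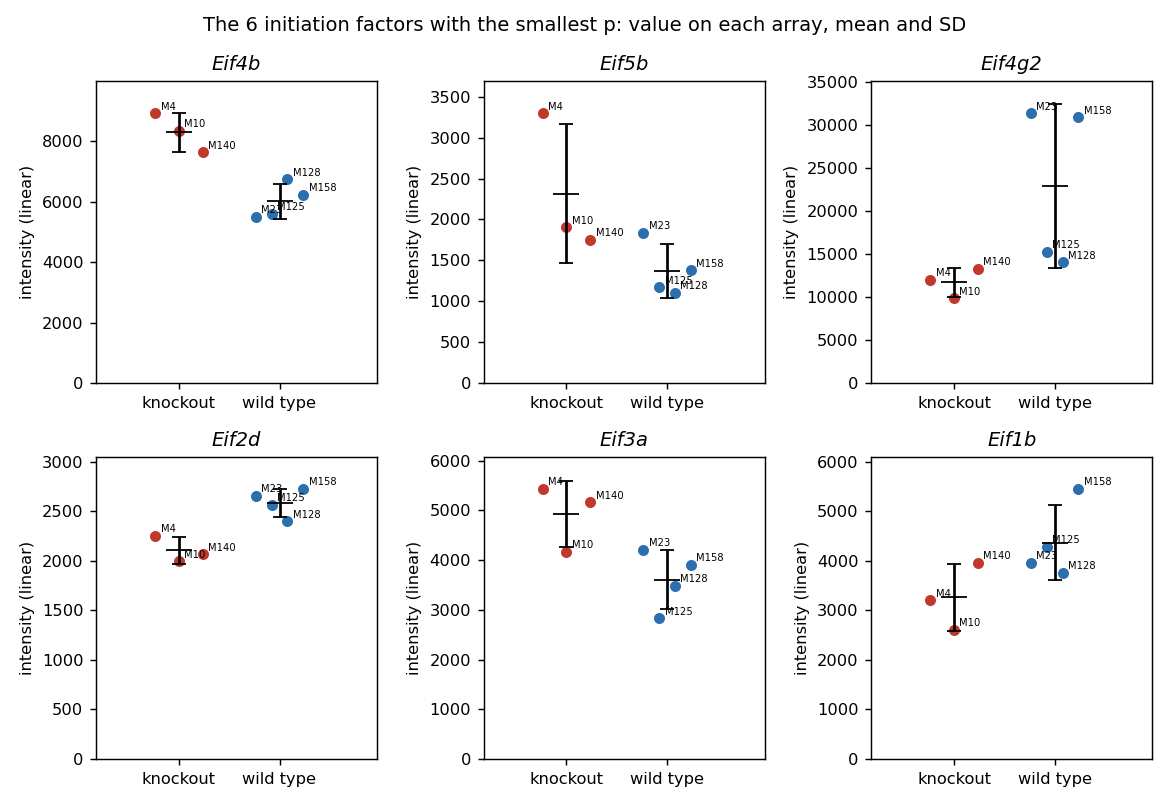
Intensity (linear axis from 0) on each array for the 6 initiation factors with the smallest p, knockout in red and wild type in blue, with the group mean and SD as a bar. Eif4b, Eif4g2 and Eif2d show no overlap of the groups, and the wild-type points of Eif4g2 split between M23 and M158 at 31372 and 30932 and M125 and M128 at 15248 and 14073.

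The subunit-joining factors and their partners had the highest median of the complexes, 0.30 over 4 genes, when the brightest probe set stood for each gene. With the mean of all probe sets it was 0.10, below eIF2B (0.12) and the eIF4E repressors (0.17). Eif5b, the GTPase that joins the ribosomal subunits, read 3296, 1903 and 1751 in the knockout and 1836, 1172, 1102 and 1381 in the wild type. M4 was far above the other arrays, and wild-type M23 lay between the other 2 knockout arrays. The log2 difference was 0.72 (SE 0.25, adjusted p = 0.304), with an exact permutation p of 0.0857. Without M4 it was 0.44 (adjusted p = 0.787), and without M125 or M128 it was 0.65 or 0.62; the unadjusted p was above 0.05 in all 3 cases. Within day 1 the difference was 0.66 (adjusted p = 0.499 with day as a block). Of its other probe sets, 1 was higher by 0.15 with no overlap of the groups (adjusted p = 0.408) and 1 differed by -0.08, and the mean of all 3 gave 0.26 (adjusted p = 0.446).

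Eif5, which makes eIF2 hydrolyse its GTP at the start codon, read 10194, 7725 and 8666 in the knockout and 9112, 4430.0, 6115 and 7679 in the wild type (log2 difference 0.42, SE 0.24, adjusted p = 0.536). The groups overlapped, with M125 lowest. Its 3 other probe sets differed by -0.83, 0.32 and 0.19, and so in both directions. Eif5a, whose protein carries the modified residue hypusine and is now known mainly for elongation, read 19726, 18355 and 21769, and 19963, 23220, 25360 and 23982 (log2 difference -0.21, SE 0.10, adjusted p = 0.437). Only M23 of the wild-type arrays fell within the knockout range. Eif6, which keeps the large subunit from joining too early, read 3434, 3399 and 4470, and 3325, 3962, 2644 and 3434 (log2 difference 0.18, SE 0.17). M140 was its highest array and M128 its lowest.

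Factors that carry or place the initiator tRNA came next. Eif2d, which can deliver tRNA to the ribosome without GTP and also helps recycle ribosomes, read 2252, 1994 and 2064 in the knockout and 2653, 2567, 2397 and 2723 in the wild type. The groups did not overlap. Mean intensity was 2103 ± 133 (SD, n = 3) against 2585 ± 141 (SD, n = 4). On the log2 scale Eif2d differed by -0.30 (SE 0.11, adjusted p = 0.325), and the exact permutation p was again the smallest possible, 0.0286. Its other 2 tested probe sets differed by -0.09 and -0.08, and the mean of all of them by -0.09 (adjusted p = 0.729). Leaving out M10, M140, M23 or M158 brought the unadjusted p above 0.05, with differences of -0.26 to -0.28. Within day 1 it was -0.21 (adjusted p = 0.605 with day as a block).

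Of eIF2 itself, Eif2s2, the beta subunit that eIF5 and eIF2B bind, read 10265, 9537 and 9537 in the knockout and 9423, 7361, 9954 and 8465 in the wild type (log2 difference 0.16, SE 0.13). The 4 other tested probe sets of Eif2s2 ranged from -0.10 to 0.07. The gamma subunit, which binds GTP and the tRNA, has an X-linked and a Y-linked gene. Eif2s3x differed by 0.22 (SE 0.18) and Eif2s3y by -0.14 (SE 0.24). Eif2s1, the alpha subunit that stress kinases phosphorylate, is not analysed here. Eif1b, a relative of the start-codon scanning factor eIF1, read 3208, 2610 and 3969, and 3969, 4282, 3766 and 5452 (log2 difference -0.43, SE 0.19, adjusted p = 0.399). M140 shared its value with M23, and within day 1 the difference was 0.08, the other way. Eif1a read 1737, 1334 and 1795, and 1391, 1034, 1667 and 1494 (log2 difference 0.22, SE 0.18), and Eif1ax, which encodes the same scanning factor eIF1A from the X chromosome, differed by 0.17 (SE 0.15) with a second probe set at -0.36.

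All 4 measured subunits of eIF2B, the exchange factor that recharges eIF2 with GTP, lay above 0, with none past an unadjusted p of 0.05. Above 0 lay 71.8% of all tested members and 49.4% of all genes. Eif2b5, the catalytic epsilon subunit, read 2713, 2842 and 2644 in the knockout and 2149, 2411, 1566 and 2712 in the wild type (log2 difference 0.33, SE 0.18, adjusted p = 0.516). The knockout arrays lay close together, and the wild-type arrays ran from 1566 on M128 up to the knockout level on M158. Eif2b2 read 2535, 2188 and 2542, and 2237, 2228, 2143 and 1978 (log2 difference 0.17, SE 0.11). Eif2b4 differed by 0.14 and Eif2b1 by 0.05. Without M128 the Eif2b4 difference was 0.05 and that of Eif2b1 turned negative, at -0.04. Eif2b1 was also below 0, at -0.03, without M23 and M158. Of the kinases that phosphorylate eIF2, Eif2ak1 (HRI, which senses heme) differed by 0.12 (SE 0.11). The other 3 were too dim to be tested, since they were not above the 40th percentile of their own array on at least 3 arrays. Eif2ak3 (PERK, the kinase of the endoplasmic reticulum) read 496, 540 and 508, and 526, 503, 468 and 547. Eif2ak4 (GCN2, which senses uncharged tRNA) read 176, 210 and 184, and 173, 194, 184 and 184. Eif2ak2 (PKR, which senses double-stranded RNA) lay between 342 and 411.

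The 11 measured subunits of eIF3, the large scaffold on the small ribosomal subunit, had a median difference of 0.12, with 8 above 0 and 3 below. Eif3a, its largest subunit and part of its core, read 5429, 4169 and 5164 in the knockout and 4206, 2830, 3478 and 3911 in the wild type. Only M23 was above a knockout array, by a small margin over M10. The log2 difference was 0.45 (SE 0.17, adjusted p = 0.338), with an exact permutation p of 0.0857. Of its 2 other tested probe sets, 1 differed by 0.45 (adjusted p = 0.477) and 1 by 0.01. The mean of all 4 probe sets of Eif3a, including a dim one that was not tested, differed by 0.26. Without M4, M140, M125 or M128 the unadjusted p was above 0.05, with differences of 0.34 to 0.44. Within day 1 Eif3a differed by 0.57 (adjusted p = 0.346 with day as a block). Eif3h read 15397, 13802 and 13919, and 12384, 14368, 8801 and 13229 (log2 difference 0.26, SE 0.17). M128 was far below the others.

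Several other eIF3 subunits were also low on that wild-type array. Eif3c, a core subunit, read 10010, 9080 and 7904 in the knockout and 10611, 9156, 4017 and 9327 in the wild type (log2 difference 0.20, SE 0.32). Eif3d, which can itself bind a cap, read 3805, 3830 and 3667, and 3385, 4003, 1581 and 4138 (log2 difference 0.29, SE 0.32). On both, M128 was less than 0.5 times the next lowest wild-type array, and the other 3 wild-type arrays overlapped the knockout. Without M128 the differences of Eif3c, Eif3d, Eif3l and Eif3k turned negative, that of Eif3e turned positive and that of Eif3m was 0.14, and the median over the 11 subunits was -0.01; without M10 it was 0.20. Eif3l, Eif3f, Eif3m and Eif3k differed by 0.13, 0.12, 0.07 and 0.03, and Eif3e, Eif3b and Eif3i by -0.01, -0.02 and -0.11. Eif3b, the subunit with an RNA-recognition motif that binds Eif3a, ranged from 1689 to 3471 within the knockout alone.

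Array by array, M128 stood lowest among the members. It was the lowest of the 7 arrays for 14 of 39 members (35.9%), where it was lowest for 22.2% of all genes, and 29 of 39 members lay below their own mean on it (74.4%, against 51.9% of all genes). The median deviation of the members from their own mean was -0.19 on M128 on the log2 scale, beside -0.01 for all genes. Within eIF3, 9 of 11 subunits were below their mean on M128 and 5 were at their lowest there: Eif3c, Eif3d, Eif3h, Eif3f and Eif3l. By contrast, Eif3e at 16411 and Eif3m at 5341 were highest on M128, so the subunits of the complex did not move together on that array. M4 leaned the other way, highest for 11 of 39 members (28.2%, against 13.6% of all genes), with a median deviation of 0.11. On the other 5 arrays the median deviation lay between -0.01 and 0.07.

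**Figure D3:**
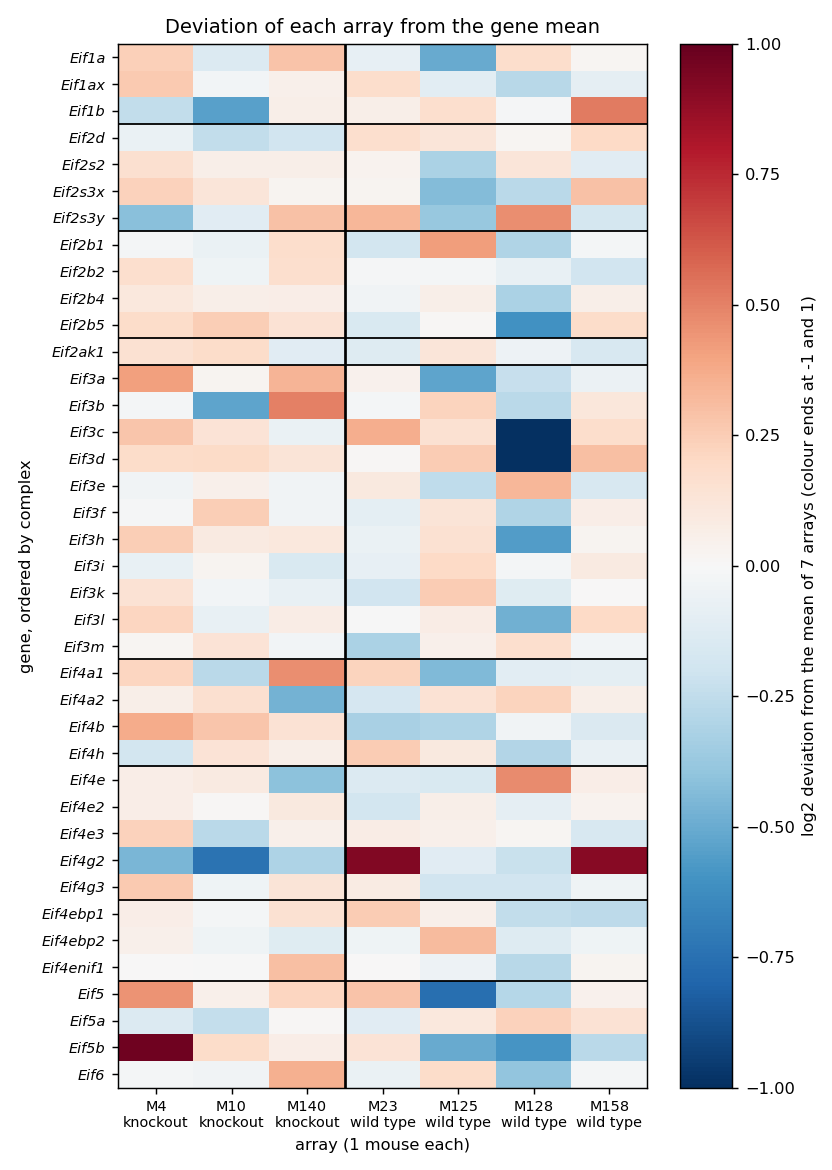
Deviation of each array from the gene's mean over 7 arrays, on the log2 scale, for the 39 tested members grouped by complex; the colour scale ends at -1 and 1. The M128 column is mostly blue, with Eif3c and Eif3d at the end of the scale, and Eif4g2 is red on M23 and M158 only.

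Most members had more than 1 probe set. The 42 genes had 103 probe sets, of which 84 were tested, and 23 genes had several tested. For 12 of these 23 all tested probe sets lay on the same side of 0, among them Eif4g2, Eif2d, Eif4e and Eif4ebp1, and for 11 they did not, among them Eif5, Eif5b, Eif1ax and Eif3c. None of the 84 passed an adjusted p of 0.05. At an unadjusted p under 0.05, 6 probe sets were higher (7.14%, against 6.57% of all 13836 probe sets tested) and 3 lower (3.57%, against 5.25%). Probe sets of a gene lie at different places along its transcripts, and the places are not given in the files used here.

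**Figure D4:**
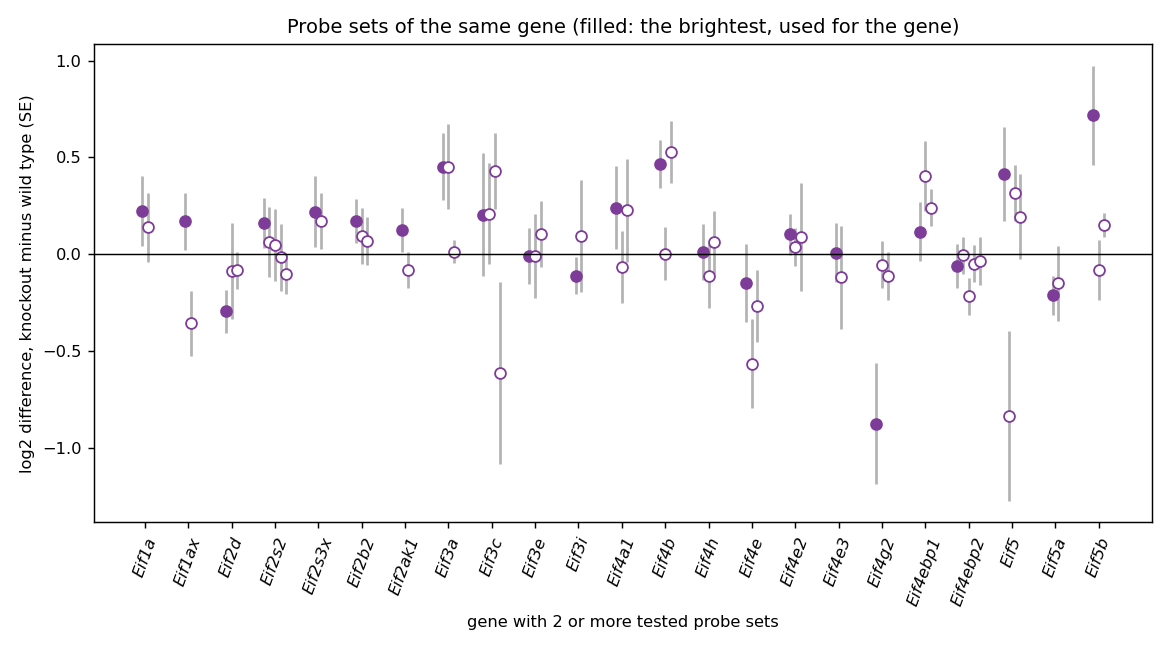
Log2 difference between knockout and wild type for every tested probe set of the 23 members with several, with SE bars; the filled point is the brightest probe set, which stands for the gene elsewhere. For Eif4g2 the filled point at -0.88 lies apart from the other 2 near 0, and for Eif5 the probe sets run from -0.83 to 0.42.

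Genes around the initiation factors gave these values on the same arrays; the lists were chosen with earlier results of these data known. Of 15 tested genes of elongation and release, 3 were higher at an unadjusted p under 0.05 (20%, against 7.04% of all genes) and 0 lower (against 5.61%), with a median difference of 0.11. They were Eef1a1, which brings charged tRNA to the ribosome (42142, 40909 and 38715 against 27594, 36546, 26946 and 30207; 0.43, adjusted p = 0.19), Hbs1l, a rescue factor for stalled ribosomes (0.51, adjusted p = 0.24), and Etf1, the release factor that reads stop codons (0.43, adjusted p = 0.369, with the groups overlapping). Of 21 tested initiation partners and genes of mTOR or MNK control, 2 were higher (9.52%) and 1 lower (4.76%), near the shares of all genes, with a median of 0.12. Mtor, the kinase upstream of 4E-BP1, was higher (4615, 3910 and 3719 against 3433, 2641, 2391 and 3288; 0.48, adjusted p = 0.299), as was Pabpc4, a poly(A)-binding protein (0.44, adjusted p = 0.375), and Bzw2, a relative of eIF5 that binds eIF2, was lower (-0.64, adjusted p = 0.338). Of 39 tested cytosolic ribosomal proteins 0 passed in either direction, with a median of 0.002, and 8 of them had readings at the upper limit of an array, where differences cannot show. The 3 with the smallest p, Rpl4, Rps3 and Rpl10a, differed by 0.16, -0.16 and 0.14 (adjusted p = 0.453, 0.457 and 0.558).

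Genes of the integrated stress response, the program that phosphorylated eIF2 sets off through the transcription factor ATF4, had more members past an unadjusted p of 0.05. Of 24 tested, 9 were higher (37.5%, against 7.04% of all genes) and 2 lower (8.33%, against 5.61%), with a median of 0.17, and 0 passed after adjustment. The list was chosen with these results known, so the counts describe it only. Gars, the glycyl-tRNA synthetase, read 6946, 6076 and 6702 in the knockout and 3779, 4187, 3018 and 4564 in the wild type (0.77, adjusted p = 0.158). Slc3a2, the heavy chain of amino acid transporters, read 2401, 2580 and 2185, and 1555, 1965, 1550 and 1730 (0.49, adjusted p = 0.205). Vldlr, a lipoprotein receptor that ATF4 can induce, was lower, at 7809, 7998 and 10408 against 11816, 15631, 14940 and 14551 (-0.71, adjusted p = 0.157). The groups did not overlap for any of the 3. The other 7 higher genes were Nupr1, Mthfd2, Ppp1r15a, Sars, Slc7a5, Cebpg and Ddit3, and the other lower gene was Cebpb, a transcription factor with many inputs. With day as a block 3 were higher, and without M4 5 were. Atf4 itself differed by 0.33 (SE 0.17), with the groups overlapping. Of the other genes, Atf3, Aars, Ddit4, Asns, Chac1 and Cars differed by 0.47, 0.35, 0.13, 0.08, 0.05 and 0.03. Phgdh, Sesn2, Ppp1r15b, Trib3, Wars and Atf5 differed by -0.03, -0.04, -0.04, -0.07, -0.11 and -0.28. In all, 16 of the 24 differences were above 0 and 8 below.

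**Figure D5:**
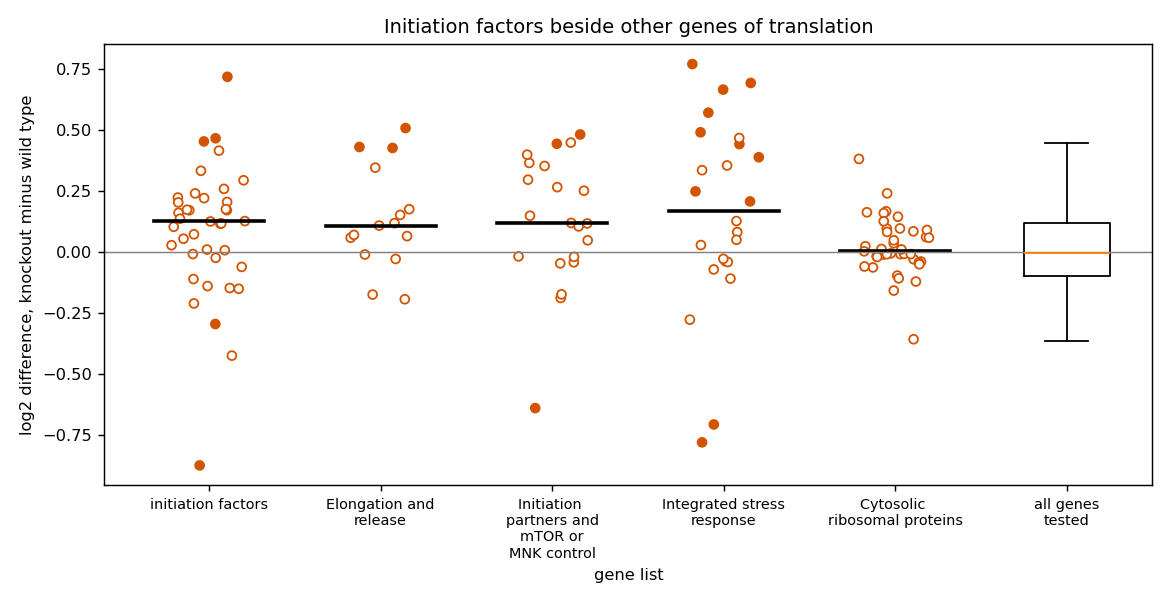
Log2 difference between knockout and wild type for each tested gene of 5 lists, with the median as a line and filled points for an unadjusted p under 0.05; the box for all 8867 genes tested spans the 25th to 75th percentile and its whiskers the 5th to 95th, -0.37 to 0.44. The initiation factors have 5 filled points of 39, the stress response list 11 of 24 and the ribosomal proteins 0 of 39.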

How the data were processed

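Members and gene lists were chosen with earlier results of these data known. The deposited table holds probe set intensity on a linear scale for 7 arrays; its software, background correction and scaling are unstated in the sources used here, and values stop at an upper limit on each array (44145 to 45552). Identical values on several arrays recurred in the deposited table, as for Eif2b4, at 2939.7 on M10, M125 and M158. Pelo, of the elongation and release list, read 777.4 on every knockout array. The reason is unstated, and the part of such ties in the spreads and p-values was not tested. Experiment sheets, other deposited information per the file headers, gave the hybridization days. Of 22626 probe sets that are not controls, 20380 had 1 gene symbol, 691 several and 1555 none; those with several were left out, including 5 that name an initiation factor. Symbols were updated through the RefSeq gene table for 20351. The brightest probe set stood for a gene. Genes above the 40th percentile of their own array on at least 3 arrays were tested on log2(intensity + 16) with limma 3.58.1 (lmFit and a trended eBayes, two-sided tests; R 4.3.3) and Benjamini-Hochberg adjustment over all 8867 genes. The script was tested on simulated data. Exact permutation tests used all 35 splits of the arrays. No signal over background, and so no depth, is given; the number of arrays limits the precision, and p-values measure the spread between these arrays. Mouse numbers are not shared between groups. Every member is named; values on every array are given for the 15 members with the smallest p and for control points of initiation listed by name, and of each other list the 3 genes with the smallest p are given. Array pairs correlated at 0.973 to 0.992, and no array was a copy of another.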

Additional observations from a re-analysis of the deposited data

Results flagged for a closer look

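Among the 4 wild-type arrays, each of the 39 tested members was examined for a single array far from the rest. Eif3c met this, with 4016.6 on wild-type M128 against 9156 to 10611 on the other 3: the gap to the nearest array was 0.848 of the group's range, above Dixon's 95% critical value for 4 samples. This is 1 of 39 genes (2.56%), and chance flags about 1 in 20 groups. The knockout group of 3 was not examined in this way.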

How the results depend on the processing

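Each of 20 alternatives changed 1 choice. The 5 members at an unadjusted p under 0.05 kept their direction under all 20, and 52 of 779 member values changed sign, in 18 other genes. With array weights 2 of 39 members, Eif4b (adjusted p = 0.0297) and Eif4g2 (0.0365), passed an adjusted p of 0.05. Of all 8867 genes, 499 passed under that setting. Under every other alternative, and at 0.10, 0 members did. The count of members higher at an unadjusted p under 0.05, 3 in the report, was 5 with array weights, 7 with day as a fixed block and 5 without M23 and M158, and ran from 1 (without M4, M125 or M128) to 4 when arrays were left out in turn. The count lower, 2 in the report, was 4 with quantile normalization, 1 with the mean of all probe sets, 4 with array weights, 0 without M10 and M125 and 1 without M23 and M158, and ran from 0 (without M10 or M158) to 3. With day as a fixed block, where the differences rest on M140 and M128 alone, the median over the members was 0.26 and Eif3b reversed to 0.78. Leaving out arrays in turn gave medians of 0.05 (without M128) to 0.16 (without M10); the mean of all probe sets gave 0.04. The causes were not tested. Under the alternatives, all genes were not counted at an unadjusted p under 0.05. The counts of members at that threshold thus have no share of all genes beside them and describe the members only. No paired analysis was possible because the groups share no mouse numbers. The filter on dim genes kept 3 eIF2 kinases out of the main test; without it all 42 members were tested and 0 passed an adjusted p of 0.05. Signal over background is unstated in the files used here.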
